A study of Mus musculus with 30 samples.

Results

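The 41 genes described here encode the machinery that copies DNA and the enzymes that make its building blocks. They were chosen by name, with earlier results of these data known, and all 41 were found among the 23385 array features tested. Where a gene had several features with its symbol alone, the one with the highest mean over all 30 arrays stood for it. They fall into 6 role groups, namely 12 genes of the replicative helicase, 5 of origin licensing, 6 of the sliding clamp and its loader, 8 of the polymerases and primase, 4 of nucleotide synthesis and 6 of strand maturation, single-strand binding and chromatin assembly.

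Signals come from Affymetrix Mouse Gene 1.0 ST arrays of total RNA from mouse embryonic stem cells, on a log2 scale on which a difference of 1 is a 2-fold change. A single rescue clone of rtTA-expressing Ainv15 cells, called NgR, was used throughout, in which doxycycline (1 ug/ml) switches on the pluripotency factor Nanog, and the cells were maintained on primary mouse embryonic fibroblasts. The 10 groups of 3 arrays were day 0 with doxycycline, then days 1, 3 and 5 of withdrawal. Each of those 3 days also had cells given doxycycline back for 12 h, the pulsed group, and cells left without it for the same 12 h, the timed control. Whether the 3 arrays of a group came from different cultures is not in the labels, so p-values speak for the spread among arrays, which may be technical. The design as labelled has no group held on doxycycline through days 1 to 5, so withdrawal and time in culture cannot be told apart, and no doxycycline-only control was analysed here.

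As background, replication starts at origins bound by the origin recognition complex, where Cdc6 and Cdt1 load the ring-shaped Mcm2 to Mcm7 helicase during G1 phase. Cdc45 and the GINS complex switch the helicase on, DNA polymerase alpha with primase lays down primers, and polymerases epsilon and delta extend them while held on DNA by the clamp PCNA. Mouse embryonic stem cells divide rapidly with a short G1 phase, and many of these genes are transcribed under E2F factors around entry into S phase.

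The labels and array quality were checked first. Nanog followed doxycycline, at 10.70 to 11.11 in the 12 arrays with it and 9.64 to 10.57 in the 18 without it. Of 12 embryonic stem cell markers, 9 were lower at day 5 than at day 0 (limma, adjusted p under 0.05), and Pou5f1 and Sox2 were still at 11.05 and 11.62 on average. The 4 arrays with the widest spread of signals were all timed controls, namely replicate 3 of day 1, replicate 2 of day 3 and replicates 2 and 3 of day 5. The main results that rest on them are also given without them. Their interquartile ranges were 2.76, 2.84, 2.94 and 2.93, against 2.39 to 2.71 in the other 26 arrays.

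Most of the 41 genes had high signals and declined over the 5 days of withdrawal. Their mean signals over all arrays lay between the 63.9th and 97.4th percentiles of the tested features, with Pcna highest. Averaged over the 41 genes, the signal was 10.30 to 10.40 in the 3 arrays of day 0, 10.33 to 10.34 at day 1, 10.09 to 10.20 at day 3 and 9.89 to 10.01 at day 5. The day 5 arrays all lay below those of day 3, and those of day 3 below those of days 0 and 1, which overlapped. In bulk RNA, fewer cells in S phase and less of these RNAs per cell cannot be told apart.

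At day 1 of withdrawal, 0 of the 41 genes passed the test (limma, adjusted p under 0.05), where 6.51% of all features did in either direction. At an unadjusted p under 0.05 there were 5, and the median change of the 41 was −0.02. With array weights 6 genes were called. The shares of all features called in a comparison come from the main fit only. Counts of called genes under alternative fits, here and below, have no such share beside them. At day 3, 18 genes fell and 4 rose, where 14.3% of all features fell and 19.6% rose, and the median of the 41 was −0.21 against 0.02 over all features. With each array centred on its median, that split was 24 lower and 2 higher. At day 5, 28 genes fell and 1 rose, where 18.8% of all features fell and 23.8% rose, and the median was −0.37 against −0.01. All 18 genes that had fallen at day 3 were among the 28 of day 5, but both contrasts share the day 0 arrays. In 33 of the 41 genes, all 3 arrays of day 5 lay below all 3 of day 0, but the share of all features with this separation was not worked out. The 4 widest arrays, all timed controls, belong to neither day 0 nor day 5 of withdrawal. Leaving them out therefore cannot change these differences, only the shared estimate of the spread.

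**Figure D1:**
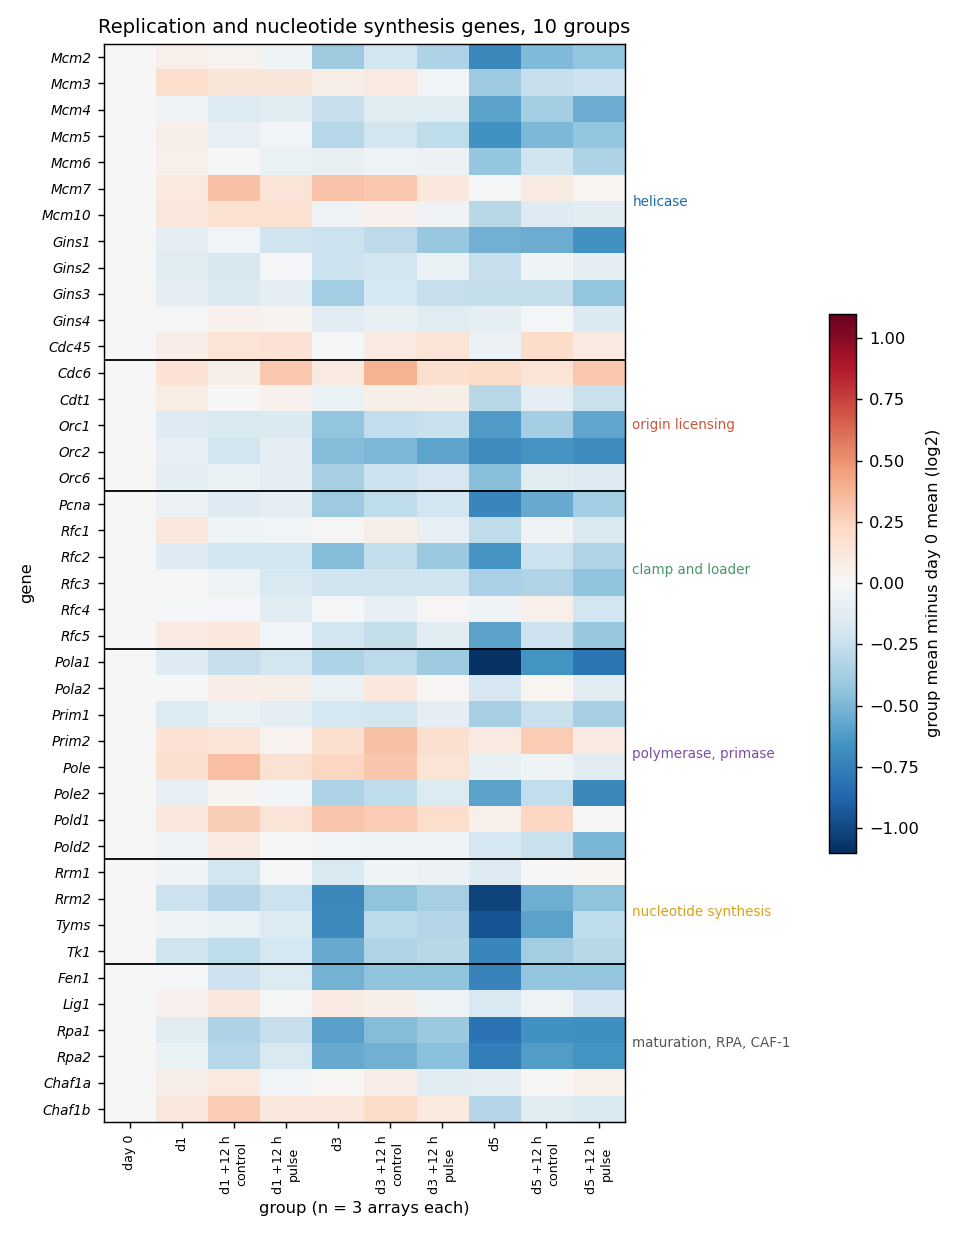
Heat map of the 41 genes in rows, grouped by role, and the 10 groups of 3 arrays in columns, coloured by the group mean minus the day 0 mean (log2, scale from −1.1 to 1.1). The column of day 5 withdrawal is the deepest blue, with Pola1 at −1.09 and Rrm2 at −1.02, while Cdc6 is above 0 in every group after day 0.

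**Figure D2:**
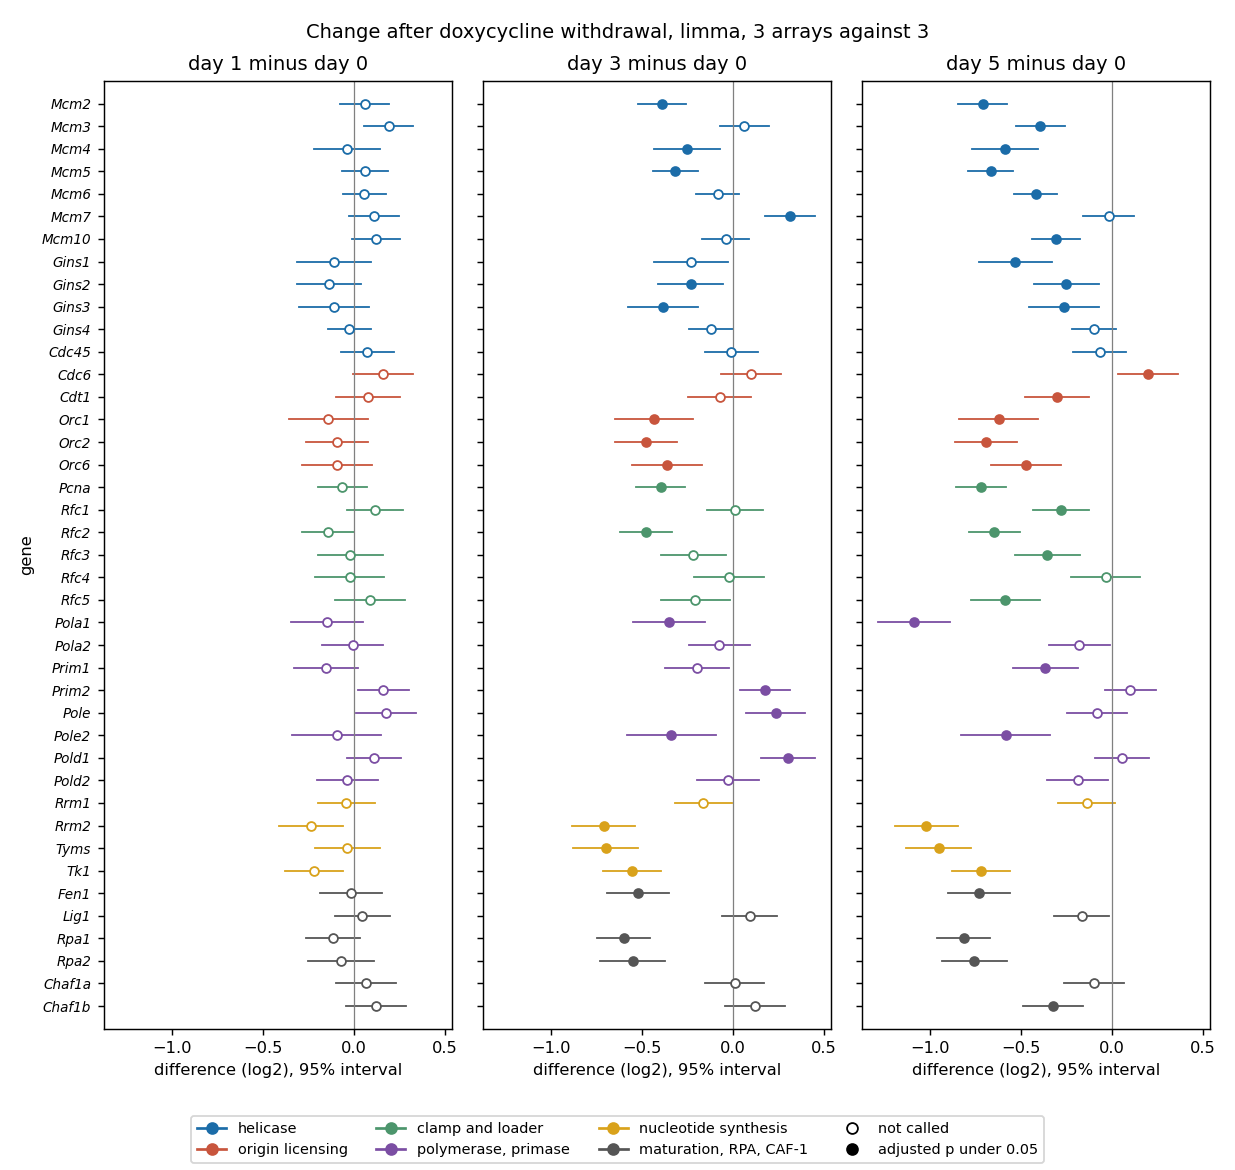
Difference from day 0 in log2 units for each of the 41 genes at days 1, 3 and 5 of withdrawal, 3 arrays against 3, with 95% intervals from limma, coloured by role. Filled points passed at an adjusted p under 0.05, and their number goes from 0 at day 1 to 22 at day 3 and 29 at day 5.

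Markers of embryonic stem cells and of other cell types moved over the same days. The mean over 12 embryonic stem cell markers was 11.34 to 11.40 at day 0 and 10.56 to 10.64 at day 5 of withdrawal. Over 12 trophoblast markers it was 7.98 to 8.01 and 9.10 to 9.16, with 7 called higher and 0 lower, and over 12 endoderm markers 7.40 to 7.43 and 7.82 to 7.93, with 6 higher and 0 lower. For 23 fibroblast markers, which the feeder layer could supply, it was 7.62 to 7.69 at day 0 and above the day 0 arrays in all 3 arrays of day 5, with 11 higher and 1 lower. Among the trophoblast markers, the keratin genes Krt7 (3.39), Krt18 (2.89), Krt19 (2.50) and Krt8 (2.11) rose most. Elf5, Eomes, Tfap2c, Hand1 and Tead4 were not called. Over all features, 23.8% were called higher and 18.8% lower. Signals on these arrays have no zero, so absence of a marker cannot be read from them. Their part in the fall of the replication genes was not tested.

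To set these changes beside gene sequence, promoter windows from 250 bases before to 50 bases after each annotated start were taken from RefSeq (build GRCm38.p6), and 34 of the 41 genes had at least 1. They were searched on both strands for 7-base E2F motifs, spelled TTCCCGC or TTCGCGC or TTGCCGC or TTGGCGC, and for the CCAAT box. The windows printed are those of the 3 genes with the largest falls at day 5 among those that hold an E2F motif, and that of Tyms, the largest fall among those that hold none. The 300 bases of Pola1 lie at chrX:93632106-93632405 on the minus strand, those of Rrm2 at chr12:24708004-24708303 and Rpa2 at chr4:132768110-132768409 on the plus strand, and those of Tyms at chr5:30073576-30073875 on the minus strand. They read 5′ to 3′ with the gene, and capitals mark the E2F motifs.
Pola1: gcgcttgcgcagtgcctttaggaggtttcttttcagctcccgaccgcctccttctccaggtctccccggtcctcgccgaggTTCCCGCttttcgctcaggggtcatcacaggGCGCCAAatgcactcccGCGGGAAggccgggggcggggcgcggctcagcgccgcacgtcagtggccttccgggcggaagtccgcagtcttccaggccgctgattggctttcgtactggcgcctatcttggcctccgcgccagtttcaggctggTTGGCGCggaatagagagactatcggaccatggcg
Rrm2: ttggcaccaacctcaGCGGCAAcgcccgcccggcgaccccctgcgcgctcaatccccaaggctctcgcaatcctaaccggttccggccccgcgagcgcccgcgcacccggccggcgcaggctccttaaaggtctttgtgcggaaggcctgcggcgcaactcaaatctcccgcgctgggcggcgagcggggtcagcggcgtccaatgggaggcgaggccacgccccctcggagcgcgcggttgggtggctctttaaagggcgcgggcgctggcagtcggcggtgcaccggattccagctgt
Rpa2: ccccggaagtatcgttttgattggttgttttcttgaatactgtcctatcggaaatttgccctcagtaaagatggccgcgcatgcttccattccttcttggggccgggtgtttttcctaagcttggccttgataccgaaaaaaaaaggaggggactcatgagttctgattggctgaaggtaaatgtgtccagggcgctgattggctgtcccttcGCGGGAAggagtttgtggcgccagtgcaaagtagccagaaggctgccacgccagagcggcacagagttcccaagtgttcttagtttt
Tyms: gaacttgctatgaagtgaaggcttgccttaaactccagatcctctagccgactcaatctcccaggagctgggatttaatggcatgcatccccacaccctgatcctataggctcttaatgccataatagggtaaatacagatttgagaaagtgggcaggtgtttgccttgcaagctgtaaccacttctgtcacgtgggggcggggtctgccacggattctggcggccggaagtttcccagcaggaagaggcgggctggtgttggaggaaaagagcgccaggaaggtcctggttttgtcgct
The Pola1 window held 4 matches, starting 169, 138 and 121 bases before the start and 15 after it. In Rrm2 the single match started 235 bases before the start, and in Rpa2 37 bases before it, in a window that also held 3 CCAAT boxes. Of the 40 windows of the 34 genes, 24 held an E2F motif (60.0%), against 9.57% of all 32851 windows of that length. A CCAAT box was in 60.0% of the genes' windows and 37.4% of all, and the cell cycle element CHR, spelled TTTGAA or TTCGAA, in 17.5% and 19.2%. The E2F motif was in 15 of 26 windows of genes lower at day 5 (57.7%) and in 9 of 14 windows of the remaining genes (64.3%). These matches describe letters in the windows, and binding was not measured.

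Among the genes of nucleotide synthesis, 3 of 4 fell and the median change at day 5 was −0.84. Ribonucleotide reductase makes deoxyribonucleotides from ribonucleotides, and its small subunit Rrm2 had signals of 11.46, 11.61 and 11.59 at day 0, 11.32, 11.33 and 11.31 at day 1, 10.94, 10.80 and 10.80 at day 3 and 10.67, 10.41 and 10.51 at day 5 of withdrawal. Every later array lay below the day 0 arrays, and the 3 days did not overlap with each other. Rrm2 fell by 1.02 ± 0.085 (SE) at day 5, 2.03-fold, with adjusted p = 1.77e-10, and had already fallen by 0.71 ± 0.085 at day 3 (adjusted p = 2.58e-07). Its large subunit Rrm1 was not called, with 11.35, 11.39 and 11.32 at day 0 and 11.24, 11.17 and 11.23 at day 5, a difference of −0.14 (95% interval −0.30 to 0.01, adjusted p = 0.143). Thymidylate synthase, Tyms, which makes the thymidine nucleotide, gave 10.28, 10.45 and 10.25 at day 0, 10.28, 10.28 and 10.32 at day 1, 9.75, 9.53 and 9.61 at day 3 and 9.56, 9.20 and 9.38 at day 5. The arrays of days 0 and 1 overlapped and those of days 3 and 5 lay below both, overlapping at the edge. Tyms fell by 0.70 ± 0.087 at day 3 and 0.95 ± 0.087 at day 5 (adjusted p = 9.1e-10), and the step from day 1 to day 3 was −0.66. Thymidine kinase, Tk1, the salvage enzyme of the same nucleotide, gave 9.72, 9.75 and 9.69 at day 0 and 9.14, 8.89 and 8.96 at day 5, with no overlap, and fell by 0.72 ± 0.078 (adjusted p = 1.95e-08). A further Tk1 feature with a lower mean signal gave −0.65, and its signal correlates at 0.72 with this one over the arrays.

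Of the 8 polymerase and primase genes, 3 fell at day 5 and 5 did not pass, with a median of −0.19. The catalytic subunit of polymerase alpha, Pola1, showed the largest fall of all 41 genes. Its signals were 10.20, 10.35 and 10.10 at day 0, 10.08, 10.13 and 10.00 at day 1, 9.98, 9.92 and 9.70 at day 3 and 9.27, 9.06 and 9.06 at day 5. The 3 day 5 arrays lay below the other 27 arrays, the nearest of which was replicate 2 of the day 5 pulse at 9.30. The change from day 0 to day 3 was −0.35 and that from day 3 to day 5 was −0.74. Pola1 fell by 1.09 ± 0.097 over the 5 days, 2.13-fold (adjusted p = 5.43e-10). Its partner Pola2, the accessory subunit, was at −0.18 (95% interval −0.35 to −0.01, adjusted p = 0.0786). Of the primase, Prim1, the catalytic subunit, gave 10.73, 10.75 and 10.73 at day 0 and 10.48, 10.25 and 10.39 at day 5 and fell by 0.37 ± 0.086 (adjusted p = 0.00101), while Prim2, the regulatory subunit, stood at 0.10 ± 0.068 (adjusted p = 0.249). Of polymerase epsilon, the leading-strand enzyme, the second subunit Pole2 gave 9.22, 9.29 and 9.27 at day 0 and 8.81, 8.57 and 8.65 at day 5 and fell by 0.58 ± 0.12 (adjusted p = 0.000211), while the catalytic subunit Pole was at −0.08 ± 0.080 (adjusted p = 0.443). Of polymerase delta, the lagging-strand enzyme, Pold1 was at 0.06 ± 0.073 and Pold2 at −0.19 ± 0.082, and neither passed. Whether these subunits differ from each other in their change was not tested.

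Of the clamp and its loader, 5 of 6 genes fell at day 5, with a median of −0.47. Pcna, the ring that holds polymerases on DNA, gave 12.48, 12.56 and 12.42 at day 0, 12.33, 12.47 and 12.47 at day 1, 12.11, 12.07 and 12.09 at day 3 and 11.90, 11.65 and 11.75 at day 5. The arrays of days 0 and 1 overlapped, and days 3 and 5 were each lower without overlap. It fell by 0.40 ± 0.066 at day 3 and 0.72 ± 0.066 at day 5, 1.65-fold (adjusted p = 9.85e-10), and a further Pcna feature, whose signal correlates at 0.9996 with this one over the arrays and is no independent measurement, gave −0.73. Of the loader, replication factor C, Rfc2 gave 10.57, 10.59 and 10.56 at day 0 and 9.98, 9.96 and 9.84 at day 5 and fell by 0.65 ± 0.069 (adjusted p = 1.53e-08). Rfc5 gave 11.03, 10.98 and 11.03 at day 0 and 10.49, 10.50 and 10.30 at day 5 and fell by 0.59 ± 0.093 (adjusted p = 8.58e-06), with no overlap in either gene. Rfc3 and the large subunit Rfc1 fell by 0.36 and 0.28. Rfc4 did not pass, at −0.03 (95% interval −0.23 to 0.16), and its 3 arrays of day 5 were spread around those of day 0.

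Among the 12 helicase genes, 9 fell at day 5 and the median was −0.35. Mcm2, a subunit of the ring, gave 11.46, 11.50 and 11.32 at day 0, 11.50, 11.40 and 11.55 at day 1, 11.05, 11.01 and 11.05 at day 3 and 10.69, 10.74 and 10.71 at day 5. Days 0 and 1 overlapped, and the 3 arrays of day 5 lay below every other array of the series. It fell by 0.71 ± 0.065 (adjusted p = 9.14e-10). Mcm5 gave 10.89, 10.93 and 10.86 at day 0 and 10.32, 10.22 and 10.14 at day 5 and fell by 0.67 ± 0.061 (adjusted p = 8.74e-10). Mcm4 gave 10.59, 10.61 and 10.43 at day 0 and 10.10, 9.86 and 9.91 at day 5 and fell by 0.59 ± 0.088 (adjusted p = 3.67e-06). In both, all day 5 arrays were below all day 0 arrays. Mcm6 and Mcm3 were not called at day 3 (−0.08 ± 0.057 and 0.06 ± 0.066) and fell by 0.42 ± 0.057 and 0.40 ± 0.066 at day 5. The signals of Mcm6 were 11.44, 11.50 and 11.40 at day 0, 11.43, 11.35 and 11.32 at day 3 and 11.09, 10.97 and 11.02 at day 5. Those of days 0 and 3 overlapped, and those of day 5 lay below both. Mcm10, a factor that helps start the activated helicase, fell by 0.31 ± 0.064, also with no call at day 3.

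Mcm7, another ring subunit, was highest at day 3 among the withdrawal days. It gave 11.43, 11.45 and 11.37 at day 0, 11.41, 11.59 and 11.58 at day 1, 11.74, 11.75 and 11.70 at day 3 and 11.39, 11.29 and 11.51 at day 5. The day 3 arrays were above all arrays of the 3 other days and those of day 5 were back among those of day 0. It rose by 0.31 ± 0.068 at day 3 (adjusted p = 6e-04). The step from there to day 5 was −0.33 ± 0.068 (adjusted p = 0.0011), and it ended at −0.02 (95% interval −0.16 to 0.12). In the GINS complex, which joins the ring to its activator, Gins1 fell by 0.53 ± 0.099, Gins3 by 0.26 ± 0.094 and Gins2 by 0.25 ± 0.086 at day 5. The calls of Gins2 (adjusted p = 0.0195) and Gins3 (adjusted p = 0.0241) at day 5 were lost when single arrays of day 0 or day 5 were left out, with highest adjusted p-values of 0.194 and 0.105. These were replicates 1 and 3 of day 0 and replicate 3 of day 5 for Gins2, and replicates 2 and 3 of day 0 and 1 and 3 of day 5 for Gins3. Gins4 and the activator Cdc45 did not pass, at −0.10 (−0.22 to 0.02) and −0.07 (−0.21 to 0.08).

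Of the 5 licensing genes, 4 fell and 1 rose at day 5. Orc2, a subunit of the origin recognition complex, gave 10.54, 10.60 and 10.47 at day 0, 10.38, 10.51 and 10.44 at day 1, 10.12, 10.14 and 9.91 at day 3 and 9.90, 9.78 and 9.85 at day 5. Its day 3 and day 5 arrays all lay below those of days 0 and 1. It fell by 0.70 ± 0.083 (adjusted p = 1.06e-07). The largest subunit Orc1 gave 9.12, 9.24 and 9.15 at day 0 and 8.71, 8.42 and 8.51 at day 5 and fell by 0.62 ± 0.10 (adjusted p = 1.8e-05). Orc6 gave 10.70, 10.73 and 10.80 at day 0 and 10.49, 10.22 and 10.11 at day 5 and fell by 0.47 ± 0.094 (adjusted p = 0.000158), and both were free of overlap. Cdt1, a loader of the helicase, fell by 0.30 ± 0.085 and was not called at day 3 (−0.07 ± 0.085). The other loader, Cdc6, was the one gene called higher. Its signals were 9.90, 9.95 and 9.70 at day 0, 9.93, 10.05 and 10.05 at day 1, 10.01, 10.04 and 9.79 at day 3 and 10.02, 10.01 and 10.11 at day 5. The day 5 arrays lay just above those of day 0, and replicate 3 of day 0 was the lowest array of the gene. The change of 0.20 ± 0.080 had adjusted p = 0.0492, close to the threshold. The call was lost with array medians centred, with unnamed features added, with the replicate number as a block and with only the compared groups fitted. It was also lost without replicate 1 or 3 of day 0 or any of the day 5 arrays. Over all alternatives the change was 0.12 to 0.25 and the adjusted p 0.00666 to 0.298, the highest without replicate 3 of day 0.

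In the last role group, 4 of 6 genes fell at day 5, with a median of −0.53. Replication protein A coats single-stranded DNA at the fork. Its largest subunit Rpa1 gave 10.74, 10.75 and 10.60 at day 0, 10.69, 10.52 and 10.54 at day 1, 10.14, 10.05 and 10.10 at day 3 and 9.97, 9.86 and 9.81 at day 5. Its subunit Rpa2 gave 10.47, 10.45 and 10.45 at day 0, 10.50, 10.34 and 10.32 at day 1, 9.93, 9.92 and 9.86 at day 3 and 9.93, 9.66 and 9.52 at day 5. In both, days 3 and 5 were below all arrays of days 0 and 1. They fell by 0.82 ± 0.071 and 0.76 ± 0.088 at day 5 (adjusted p = 4.31e-10 and 6.78e-08). Fen1, the nuclease that trims the ends of Okazaki fragments, gave 9.72, 9.67 and 9.80 at day 0, 9.22, 9.12 and 9.27 at day 3 and 9.11, 8.99 and 8.88 at day 5 and fell by 0.73 ± 0.083 (adjusted p = 3.88e-08). The ligase that seals them, Lig1, was at −0.17 (95% interval −0.32 to −0.01, adjusted p = 0.0723). In chromatin assembly factor 1, which places histones behind the fork, Chaf1b fell by 0.32 ± 0.080 and Chaf1a was at −0.10 ± 0.080 without a call.

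**Figure D3:**
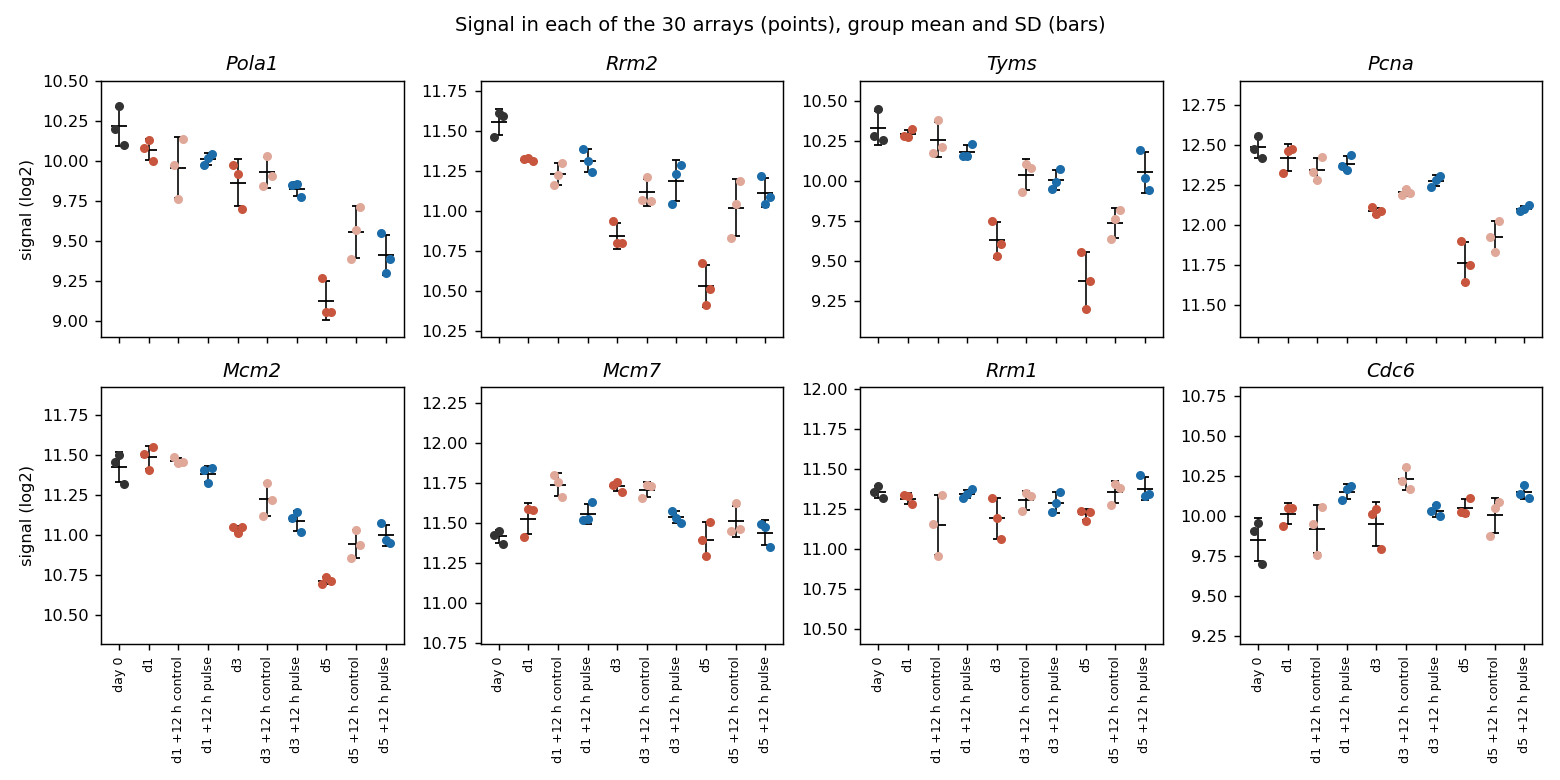
Log2 signal of 8 of the genes in each of the 30 arrays (points), with group means and SD (bars) over the 10 groups of 3 arrays, each panel on its own axis range. Pola1, Rrm2, Tyms, Pcna and Mcm2 are lowest in the day 5 withdrawal group, where Pola1 lies at 9.06 to 9.27, while Mcm7 was above its day 0 arrays at day 3 and Cdc6 had its lowest mean at day 0.

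The 4 genes called higher at day 3 were Mcm7, Pold1, Pole and Prim2. Pold1 gave 9.43, 9.39 and 9.27 at day 0 and 9.63, 9.64 and 9.73 at day 3 and rose by 0.30 ± 0.073 (adjusted p = 0.00162). Pole rose by 0.23 ± 0.080 (adjusted p = 0.0245) and Prim2 by 0.18 ± 0.068 (adjusted p = 0.0454). The calls of Pole and Prim2 were lost with array medians centred, with only the compared groups fitted, and without any of replicates 1 and 3 of day 0 or replicates 1 and 2 of day 3, where their adjusted p-values reached 0.151 and 0.296. Among the genes lower at day 3, Mcm4, Gins2 and Pole2 lost their calls when single arrays were left out, at highest adjusted p-values of 0.1, 0.102 and 0.11. For Mcm4 these were replicates 1 and 2 of day 0 and 2 and 3 of day 3, for Pole2 replicates 2 and 3 of day 0 and 2 of day 3, and for Gins2 each of the 6 arrays but replicate 2 of day 0.

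The decline was also followed in 3 series that share no arrays with each other, namely the withdrawal groups, the timed controls and the pulsed groups, each at days 1, 3 and 5. Whether the groups of a day came from the same cultures is not in the labels, so the series may not be independent. Between days 1 and 5, the 41 genes had a median change of −0.42 in the withdrawal groups, −0.21 in the timed controls and −0.27 in the pulsed groups, against −0.03, −0.06 and −0.01 over all features. The change was below 0 in 40, 34 and 38 of the 41 genes, where 55.2%, 60.2% and 52% of all features were below 0. It was below 0 in all 3 series in 33 of 41 genes, against 33.8% of all features. When the 4 widest arrays were left out, the timed controls had a median of −0.25 against 0.00, with 34 of 41 below 0. The pulsed groups had doxycycline for their last 12 h.

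By step, 15 genes fell and 1 rose from day 1 to day 3 of withdrawal, where 9.77% of all features fell and 13.2% rose. The one that rose was Mcm7, by 0.20, and the largest fall was that of Tyms. From day 3 to day 5, 18 genes fell and 0 rose, where 4.75% of all features fell and 7.59% rose. At an unadjusted p under 0.05 there were 26, and 28 to 31 genes were called with quantile normalization, array weights or the interquartile range as covariate. The 8 helicase genes in that second step were Mcm2, Mcm3, Mcm4, Mcm5, Mcm6, Mcm7, Mcm10 and Gins1, at −0.27 to −0.46. Of the 4 nucleotide genes, 3 fell in the first step and 1 in the second, and of the 12 helicase genes 3 fell in the first and 8 in the second. Whether the steps differ in size was not tested, and both share the day 3 arrays.

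In the timed controls, 3 genes fell from day 1 to day 3 (Mcm2, Orc2 and Rfc5, at −0.24 to −0.38) and Cdc6 rose by 0.31, where 4.42% of all features fell and 5.6% rose. With quantile normalization that split was 5 lower and 3 higher, and without replicate 1 of the day 3 controls 1 gene was called. In the fit without the 4 widest arrays, 2 were lower and 1 higher. From day 3 to day 5, 10 genes fell in the timed controls, where 7.42% of all features fell. These were Mcm2, Mcm3, Mcm5, Mcm7, Mcm10, Pcna, Pola1, Pole, Tyms and Chaf1b, at −0.19 to −0.37. Without the 4 widest arrays 6 genes were called, with only the compared groups fitted 0, and with the interquartile range as covariate 21. In the pulsed groups, 6 genes fell from day 1 to day 3, where 5.43% of all features fell, and 13 from day 3 to day 5, where 8.53% fell. The first set was Mcm2, Mcm5, Mcm10, Orc2, Fen1 and Rpa2, at −0.20 to −0.47, and the largest falls of the second were Pole2 (−0.56), Pold2 (−0.46), Mcm4 (−0.42) and Pola1 (−0.41). The count of 6 became 3 without replicate 1 or replicate 3 of the day 1 pulse. The count of 13 became 7, 6 and 7 without replicate 2 of the day 3 pulse, replicate 2 of the day 5 pulse and replicate 3 of the day 5 pulse. Mcm3, Pola1, Pole and Chaf1b fell from day 3 to day 5 in all 3 series, and 9 genes fell in at least 1 step of each, with Mcm2, Mcm5, Mcm10, Orc2 and Rfc5 added. Of all features, 2.04% met the first condition and 4.23% the second. With the 4 widest arrays left out, the genes numbered 4 and 7, where 1.82% and 4.11% of all features did so.

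The pulse comparisons ask whether a 12 h return of doxycycline, and with it Nanog, moved these genes against controls of the same age. On day 1, 0 of the 41 genes passed (limma, 3 at an unadjusted p under 0.05), where 3.75% of all features did, and the median difference was 0.00. Without replicate 3 of the day 1 controls, 2 genes were called, without the 4 widest arrays 3 at a median of 0.07, and with array weights 11. On day 3, 0 passed (limma, 5 at an unadjusted p under 0.05), where 0.0385% of all features did, at a median of −0.03. On day 5, 3 genes were lower and 1 higher in the pulsed arrays, where 7.1% of all features were lower and 5.13% higher, at a median of −0.10 against 0.02. With quantile normalization that split was 1 lower and 4 higher, and with array weights 19 genes were called. When the 4 widest arrays were left out, the median turned to 0.03.

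Tyms was the gene called higher after the day 5 pulse. It gave 10.20, 10.02 and 9.95 in the pulsed arrays and 9.64, 9.76 and 9.82 in their controls, with no overlap, a difference of 0.31 ± 0.087 (adjusted p = 0.0218). The lower ones were all polymerase subunits. Among 41 genes, 3 lower is about the share over all features (7.1%), and 1 higher is no more than that share (5.13%). The number of calls is therefore not particular to these genes. Pole2 gave 8.80, 8.36 and 8.49 with the pulse and 8.89, 8.95 and 9.11 without it (−0.44 ± 0.12, adjusted p = 0.0213), with the groups apart. Pold1 gave 9.49, 9.29 and 9.33 with the pulse and 9.52, 9.71 and 9.55 without it (−0.23 ± 0.073, adjusted p = 0.043), also apart. Pold2 gave 10.53, 10.32 and 10.29 and 10.45, 10.82 and 10.63 (−0.26 ± 0.082, adjusted p = 0.0415), and its arrays overlapped. In the fit without the 4 widest arrays, 0 genes were called, and 0 with only the compared groups fitted. The former fit leaves replicate 1 as the only day 5 control and assumes that it varies like the other groups. In it the difference was 0.42 for Tyms, −0.34 for Pole2, −0.15 for Pold1 and −0.08 for Pold2. Leaving out replicate 2 of the day 5 controls or of the day 5 pulse gave 0, leaving out replicate 3 of either gave 1, and leaving out replicate 1 of the controls gave 9. Pcna, also a gene that fell on withdrawal, was at 12.09, 12.10 and 12.12 with the pulse and 11.93, 11.83 and 12.03 without it, apart but not called (0.18 ± 0.066, adjusted p = 0.0724). Rrm2 and Pola1 were at 0.09 (95% interval −0.08 to 0.27) and −0.14 (−0.34 to 0.05). The difference between the pulse effects of day 3 and day 1 passed in 0 of 41 genes (limma, 2 at an unadjusted p under 0.05), where 0.00855% of all features passed. That between day 5 and day 1 passed in 0 (2 at an unadjusted p under 0.05), where 0.111% did, but 14 genes passed with array weights.

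The timed controls were themselves set against the withdrawal arrays taken 12 h earlier. On day 1, 0 of 41 genes passed (limma, 8 at an unadjusted p under 0.05), where 6.25% of all features did, and 6 were called without replicate 3 of the day 1 controls, one of the wide arrays. On day 3, Tyms was higher in the controls, at 9.93, 10.11 and 10.08 against 9.75, 9.53 and 9.61 (0.41 ± 0.087, adjusted p = 0.0105), where 1.29% of all features were higher. The call was lost without the 4 widest arrays and without replicate 2 or 3 of day 3 withdrawal or replicate 2 of the controls. Of the 41 genes, 32 were above 0 on day 3, where 50.7% of all features were below 0. On day 5, 9 genes were higher, where 2.32% of all features were. They were Cdc45, Orc6, Rfc2, Rfc5, Pola1, Rrm2, Tyms, Tk1 and Fen1. In that comparison 38 of the 41 genes were above 0 at a median of 0.18, where 54.8% of all features were below 0 at a median of −0.02. Rrm2 gave 10.83, 11.04 and 11.19 in the controls and 10.67, 10.41 and 10.51 at withdrawal (0.49 ± 0.085, adjusted p = 0.00155), and Rfc2 gave 10.25, 10.37 and 10.41 and 9.98, 9.96 and 9.84 (0.41 ± 0.069, adjusted p = 0.000995). Neither overlapped.

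This comparison shares the day 5 withdrawal arrays with the fall from day 0, so low values in those arrays enter both with opposite sign. The day 5 controls also differed among themselves. Replicates 2 and 3, with interquartile ranges of 2.94 and 2.93, lay above all 3 withdrawal arrays in 35 and 36 of the 41 genes, and replicate 1, at 2.52, in 23. The matching shares of all features were not worked out. Without the 4 widest arrays 0 genes were called, at a median of 0.09, and with array weights 23. The count was 2 without replicate 2 or 3 of day 5 withdrawal or replicate 3 of the controls, 4 without replicate 2 of the controls and 16 without their replicate 1. In each of the 3 timed control groups, the wide arrays had a higher mean over the 41 genes than the remaining ones. Markers of other cell types moved in this comparison as well. The mean over the 23 fibroblast markers was 7.75 to 7.83 in the day 5 controls, below all 3 withdrawal arrays, with 5 called lower and 0 higher. Over the 12 trophoblast markers it was 9.34 to 9.44, above the withdrawal arrays, with 4 higher and 0 lower. Of all features, 0.984% were lower and 2.32% higher in this comparison. With the 4 widest arrays left out, 3 fibroblast markers were lower and 0 trophoblast markers were called, and their part in the higher signals of the 9 genes was not tested.

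**Figure D4:**
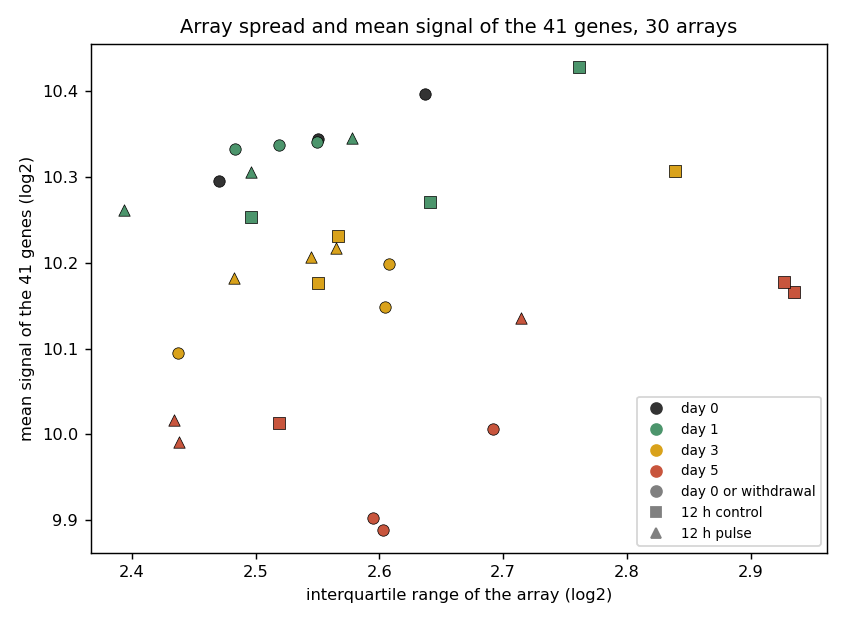
Mean signal of the 41 genes (log2, vertical) against the interquartile range of all tested features on the array (log2, horizontal) for each of the 30 arrays, coloured by day and shaped by treatment. The 4 widest arrays, at 2.76 to 2.94, are 12 h controls (squares), and the 3 arrays of day 5 withdrawal lie at 9.89 to 10.01, overlapping only with the lowest day 5 pulse array at 9.99.

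Over all 10 groups, 36 of the 41 genes varied by a moderated F-test of limma (87.8%), where 56.1% of all features did. Those that did not pass were Gins2, Rfc4, Pola2, Rrm1 and Chaf1a. Day 0 held the highest group mean in 18 genes and the day 1 timed controls in 9, while day 5 withdrawal held the lowest in 27 genes and the day 5 pulse in 9. When the 4 widest arrays were left out, these numbers were 19, 6, 23 and 6. The widest range of group means was that of Pola1 (1.09), followed by Rrm2 (1.02), Tyms (0.95) and Rpa1 (0.82). Cdc6, Prim2 and Pold1 had their lowest mean at day 0.

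Other genes of replication, from a list of 40 of which 38 were measured, moved in both directions at day 5 of withdrawal. Of the 38, 22 fell and 7 rose, at a median of −0.26, where 18.8% of all features fell and 23.8% rose. The histone chaperone Asf1a fell by 0.95 (adjusted p = 2.54e-08), the fork protection factor Tipin by 0.81 (adjusted p = 1.43e-08) and geminin, Gmnn, the inhibitor of Cdt1, by 0.78 (adjusted p = 1.06e-06). The small subunit of polymerase delta, Pold4, rose from 7.72 to 9.05 (adjusted p = 1.3e-12). Of 27 further nucleotide genes, 17 fell and 4 rose, at a median of −0.36. The largest falls were those of the phosphoribosyl pyrophosphate synthetases Prps2 (−1.21) and Prps1 (−0.94), the nucleoside diphosphate kinase Nme1 (−1.14) and the serine hydroxymethyltransferase Shmt1 (−0.96), which feeds one-carbon units to thymidylate synthesis.

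Lists for neighbouring processes did not all move this way. Over all features, 18.8% fell and 23.8% rose at day 5. Of 30 genes of G1/S control, 8 fell and 10 rose, at a median of 0.01. Cyclin D1, Ccnd1, fell from 10.64 to 8.21 (adjusted p = 2.33e-18) and cyclin E1, Ccne1, fell from 11.16 to 10.05 (adjusted p = 2.79e-12), while the kinase inhibitor Cdkn1c rose by 1.04 and the retinoblastoma gene Rb1 by 0.82. Of 29 mitosis genes, 6 fell and 9 rose, at a median of −0.02, with Birc5 (−0.66), Cdc20 (−0.61) and Cdca8 (−0.54) lower and Cenpf (0.45) higher. Of 28 ribosome biogenesis genes, 25 fell and 0 rose, at a median of −0.49, among them Bop1 (−0.99), Ddx21 (−0.97), Nolc1 (−0.93) and Rrp9 (−0.87). No test compared the lists with each other.

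After the day 1 pulse, 1 further nucleotide gene and 2 genes of G1/S control were lower and 1 of G1/S control was higher. Over all features, 3.2% were lower and 0.547% higher. Cad, the enzyme that starts pyrimidine synthesis, was lower by 0.36 (adjusted p = 0.0185), Rb1 by 0.52 (adjusted p = 0.0164) and E2f3 by 0.36 (adjusted p = 0.0456), and Ccnd1 was higher by 0.28 (adjusted p = 0.0455). In the fit without the 4 widest arrays, Cad and Ccnd1 kept their calls, and those of Rb1 (adjusted p = 0.0512) and E2f3 (adjusted p = 0.103) were lost. After the day 5 pulse, 7.1% of all features were lower and 5.13% higher. Of 29 mitosis genes, 15 were lower and 0 higher, at a median of −0.22. Nusap1 was at −0.53 (limma, adjusted p = 0.000807) and Cenpe at −0.35. Of the 38 further replication genes 3 were lower and 0 higher, with Pold4 at −0.51 and Dbf4 at −0.35. Of the 27 nucleotide genes 4 were lower and 1 higher, with Prps1 at −0.45 and Tk2 at −0.34 against Nme1 at 0.29. G1/S control was split evenly over 30 genes, with 4 lower, among them Tfdp2 (−0.65) and Rb1 (−0.51), and 4 higher, which were Ccnd1 (0.43), Cdkn1c (0.37), Ccne1 (0.26) and Cdk4 (0.26). Of the 28 ribosome biogenesis genes 3 were higher, with Bop1 at 0.33 and Ddx21 at 0.29, and 1 was lower. Nme1 and the genes of G1/S control called higher were named after their values were seen. Without the 4 widest arrays, 0 genes of these 5 lists were called after the day 5 pulse, and the mitosis median was −0.13.

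**Figure D5:**
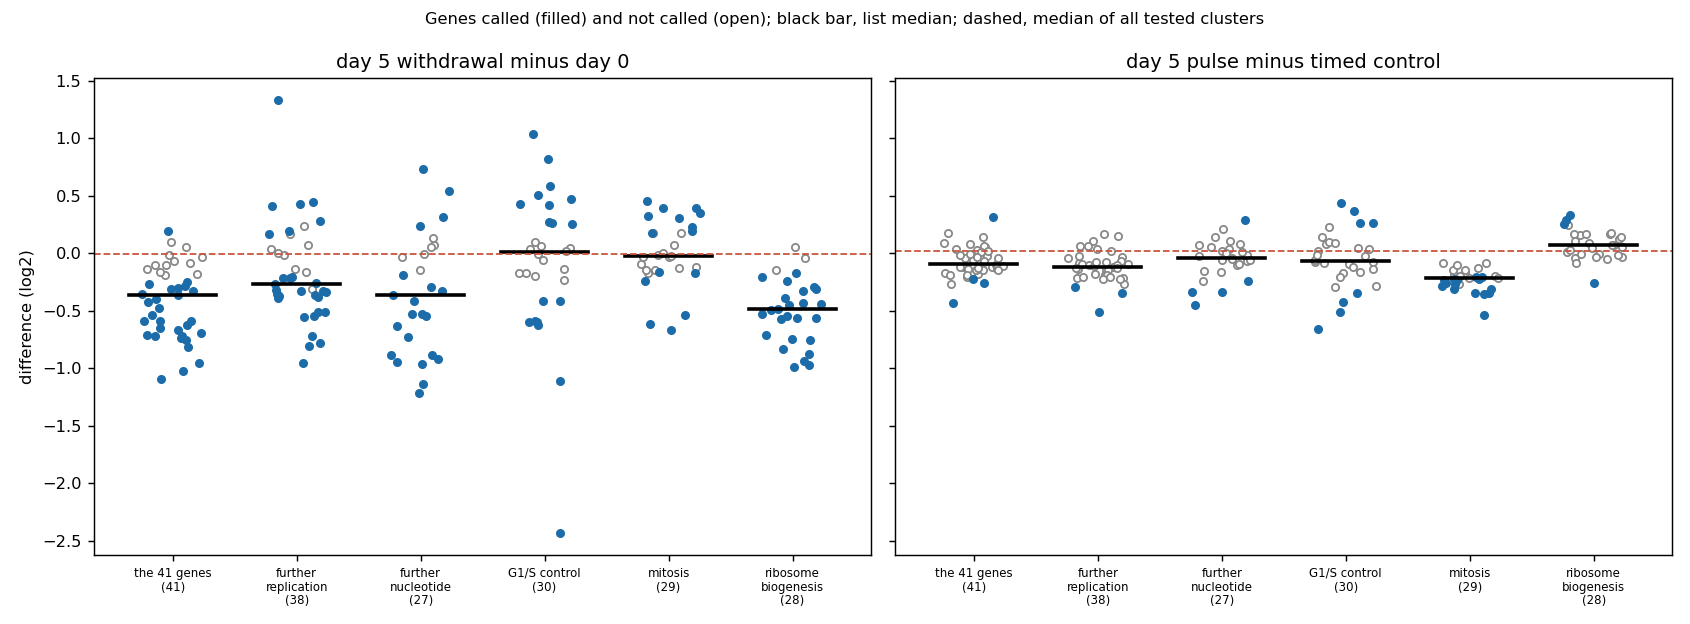
Log2 difference of each gene of the 41 and of the 5 further lists, day 5 withdrawal minus day 0 on the left and day 5 pulse minus timed control on the right, filled where called at an adjusted p under 0.05, with list medians as bars and the median of all tested features as a dashed line. On the left the medians of the 41 genes and of ribosome biogenesis lie at −0.37 and −0.49 and that of mitosis at −0.02.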

How the data were processed

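Total RNA of 30 samples was hybridized to Mouse Gene 1.0 ST arrays, 1 sample per array. Per the submitters' processing notes, the authors used Affymetrix Expression Console with RMA, a method that corrects background, equalizes probe distributions and summarizes probes. The deposited values are its log2 signals per transcript cluster. Versions, annotation release and genome build of that step are not given in the sources used here. Of 28815 clusters, the platform table named 21780 by 1 symbol, 1605 by several and 5430 by none, and the 23385 named ones, called features in the report, were tested. Arrays have no read depth, and their number limits the precision.

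A single limma 3.58.1 model (R 4.3.3) covered the 30 arrays with 1 mean per group, for 17 contrasts and an F-test over groups. P-values were adjusted by Benjamini-Hochberg over all tested clusters within a contrast and called under 0.05. Errors are SE of a difference. The method was tested on simulated data. Signal per array is given by rule for the up to 3 genes of each role with the largest called change at day 5, and for Pcna, Rrm2, Mcm2, Mcm6 and Cdc6; further genes were added after their values were seen. Of each further list, up to 4 called genes with the largest change at day 5 and up to 2 per pulse are named. The members and lists were chosen with earlier results of these data known. Of 30 replicate pairs, 0 held identical values. Alternatives were trend and robust variance, array weights, median centring, quantile normalization, the clusters in the lowest 40 percent of signal dropped, unnamed clusters added, the replicate number as a block, the interquartile range as covariate, the 4 widest arrays left out, the mean over a gene's clusters, only the compared groups, and each array left out in turn. Promoter sequences are those of RefSeq (GRCm38.p6). Mean signals were ranked among all tested clusters, but no test compared the levels of different genes, since probes differ. The medians, lists, series of days and group extremes without the 4 widest arrays were added after seeing the data.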

Additional observations from a re-analysis of the deposited data

How the results depend on the processing

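Of 55 called changes of single genes in the withdrawal against day 0 and pulse comparisons, 43 held under every alternative run, and of their 935 values under alternatives 865 kept their call, 70 lost it and 0 reversed. The counts at days 3 and 5 of withdrawal, from day 1 to day 3 of withdrawal and over the 10 groups stayed within 1.5 times in all of them.

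The cause of the following moves was not tested. With array weights, the counts of called genes were 6 at day 1 withdrawal, 30 from day 3 to day 5, 11, 2 and 19 for the pulses of days 1, 3 and 5, 2 and 14 for the differences between pulse effects, 9, 3 and 23 for the 12 further hours, 11 in the first step of the controls, and 13 and 25 in the steps of the pulsed cells. With quantile normalization they were 3 at day 1, 28 from day 3 to day 5, 1 for the day 1 pulse, 1 for the difference of pulse effects of day 5, 4 for the 12 further hours on day 1, and 8 and 18 in the controls. With the interquartile range as covariate they were 5 at day 1, 31 from day 3 to day 5, 3 and 1 for the pulses of days 1 and 5, 1 and 1 for their differences, 7 for the 12 further hours on day 1, 11 and 21 in the controls, and 12 in the first step of the pulsed cells. Without the 4 widest arrays they were 2 at day 1, 3 and 0 for the pulses of days 1 and 5, 6, 0 and 0 for the 12 further hours, and 6 from day 3 to day 5 in the controls. With only the compared groups fitted, 0 were called for the day 5 pulse, the 12 further hours on days 3 and 5, and both control steps. Trend and robust variance gave 1 at day 1 and 2 each for the 12 further hours on days 1 and 3, as did leaving out low signals, and the mean over clusters gave 2 for the 12 further hours on day 3.

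With arrays left out in turn, the counts were 18 to 21 at day 3 and 26 to 28 at day 5 of withdrawal, 11 to 15 and 12 to 19 in the steps of withdrawal, 0 to 2 and 0 to 9 for the pulses of days 1 and 5, 0 to 6, 0 to 1 and 2 to 16 for the 12 further hours, 1 to 5 and 7 to 12 in the controls, 3 to 5 and 6 to 16 in the pulsed cells, and 35 to 38 over the 10 groups. With the replicate number as a block, 2 genes were called for the day 5 pulse and 28 at day 5 of withdrawal. Other counts changed by less than 1.5 times under the block. The correlations of same-numbered replicates' deviations ran from −0.72 to 0.48 over 15 comparisons, and in 0 of them were all pairs over 0.1. With 3 arrays per group, this check cannot exclude that the numbers pair some samples. No date or batch is in the labels, and 3 arrays per group limit what could be called.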
